A study of Mus musculus with 9 samples.

Results

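The creatine cycle genes of brown adipose tissue are described here in mice lacking growth hormone releasing hormone (GHRH) and in their littermates. They are 7 genes, *Gatm*, *Gamt*, *Slc6a8*, *Ckb*, *Ckmt1*, *Ckmt2* and *Alpl*, matched by exact symbol among the 24356 symbols of the expression tables. All 7 were found, and 6 of them were above 0 in every library and could be tested with the 14675 genes that met this condition. *Ckmt1*, which was listed at 0 in 1 library, was the exception. *Ckmt2* is also a skeletal muscle gene, so its values are set beside those of muscle transcripts.

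Creatine is built from arginine and glycine by glycine amidinotransferase (*Gatm*), which makes guanidinoacetate, and guanidinoacetate methyltransferase (*Gamt*), which adds a methyl group from S-adenosylmethionine. Cells also take it up from the blood through the sodium- and chloride-dependent transporter *Slc6a8*. Creatine kinases move a phosphate from ATP to creatine. In thermogenic fat cells the phosphocreatine made in this way can be hydrolysed, by the phosphatase encoded by *Alpl*, without the work being used elsewhere, and the repeated cycle turns ATP over and gives off heat in parallel with the uncoupling protein *Ucp1*. *Ckb* encodes the brain-type kinase, *Ckmt1* and *Ckmt2* the ubiquitous and the sarcomeric kinase of the mitochondrial intermembrane space, and *Ckm* the muscle-type kinase of the cytosol.

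RNA sequencing of polyadenylated transcripts was done on the brown adipose tissue of 4 mice labelled KO (2 females and 2 males) and 5 labelled WT (3 females and 2 males), each library from a mouse with its own number. The KO mice carried a deletion of *Ghrh* in the whole animal, which leaves them short of growth hormone, and the WT mice were their littermates. All were of a mixed C57BL6 and 129SV background, with free access to mouse chow. Their ages were not used here. The unit is FPKM, fragments per kilobase of transcript scaled to all mapped fragments of the library, so levels of different genes are compared per length. The number of fragments behind a library is unknown beyond a relative depth of 0.911 to 1.14 (against WT female 1).

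*Ghrh*, on chr2:157329497-157347506 (GRCm38), ran against the labels. It was listed at 0 in all 5 libraries labelled WT and at 0.233 to 0.846 FPKM in the 4 labelled KO. Without the place of the deletion on this transcript its level does not check the genotype, and every direction given here takes the labels as they stand. One library, KO male 1, stood apart: its rank correlation with the others across genes was 0.924 to 0.934, against 0.958 to 0.991 among the other 8. Its summed FPKM over 7 lymphocyte markers was 178.8, against 1.22 to 3.13 in the other 8 libraries. The summed level of 11 brown adipocyte markers, *Ucp1* and *Cox8b* the highest, was 6429 to 8325 FPKM in KO and 6048 to 7891 in WT, and none of the 11 was called. The ranges of the KO and WT sums also overlapped for 7 endothelial, 7 fibroblast and progenitor, 8 nerve, 5 macrophage, 4 neutrophil, 6 general adipocyte, 7 white adipocyte and 6 cell division markers, of which 3 fibroblast and progenitor, 1 macrophage, 1 general adipocyte and 1 white adipocyte marker were called lower in KO, beside 2.17% of all genes tested. They did not overlap for 20 skeletal muscle markers, which are described with *Ckmt2*.

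The sequences before the transcription start are shown for the 2 genes whose difference between KO and WT passed the test (*Ckmt2* and *Gamt*), for *Ckm*, whose level is set beside that of *Ckmt2*, and for *Ckb*, the member with the highest mean level in WT. Each is the 250 bases before the start in RefSeq (GRCm38.p6), written 5′ to 3′ on the gene's own strand. Capitals mark matches, on either strand, to the E-box CANNTG, the TATA box TATAAA, the CCAAT box CCAAT and the GC box GGGCGG. The cAMP response element TGACGTCA and the nuclear receptor half-site AAGGTCA were also searched for.
Ckmt2 promoter, chr13:91876886-91877135, minus strand: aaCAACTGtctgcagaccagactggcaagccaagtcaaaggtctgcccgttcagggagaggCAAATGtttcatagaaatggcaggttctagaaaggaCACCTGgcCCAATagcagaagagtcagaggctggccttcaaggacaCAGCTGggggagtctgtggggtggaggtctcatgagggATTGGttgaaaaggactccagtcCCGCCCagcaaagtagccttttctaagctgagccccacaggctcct
Ckm promoter, chr7:19410844-19411093, plus strand: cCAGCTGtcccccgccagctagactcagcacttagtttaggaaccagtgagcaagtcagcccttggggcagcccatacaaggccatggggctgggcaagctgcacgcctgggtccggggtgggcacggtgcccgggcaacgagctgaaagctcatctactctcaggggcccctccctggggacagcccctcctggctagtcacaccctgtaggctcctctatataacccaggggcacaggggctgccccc
Gamt promoter, chr10:80261013-80261262, minus strand: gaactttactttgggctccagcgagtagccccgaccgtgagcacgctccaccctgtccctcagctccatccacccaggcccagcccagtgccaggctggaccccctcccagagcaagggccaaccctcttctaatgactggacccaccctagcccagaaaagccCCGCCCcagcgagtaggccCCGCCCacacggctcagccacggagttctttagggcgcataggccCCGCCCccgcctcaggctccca
Ckb promoter, chr12:111672339-111672588, minus strand: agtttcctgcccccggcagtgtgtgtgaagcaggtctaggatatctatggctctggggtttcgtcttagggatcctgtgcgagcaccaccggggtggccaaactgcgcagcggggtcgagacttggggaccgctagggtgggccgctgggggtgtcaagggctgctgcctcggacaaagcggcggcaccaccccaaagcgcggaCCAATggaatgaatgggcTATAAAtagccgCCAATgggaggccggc

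The window of *Ckmt2* held 4 E-boxes, the letters to which muscle regulatory factors of the MyoD family, among many others, can bind, and that of *Ckm* held 1. An E-box was found in 66.2% of 32851 promoter windows of this length. The window of *Gamt* held 3 GC boxes and that of *Ckmt2* 1, against 32.7% of windows with any. *Ckb* had a TATA box 22 bases before its start (12.4% of windows held one) and 2 CCAAT boxes, as many as *Ckmt2* (33.8%). Neither the cAMP response element (1.55% of windows) nor the nuclear receptor half-site (4.08%) was matched in any of the 4 windows. These are matches of letters only. The RefSeq start used for *Ckm* lies inside the span of the gene in GENCODE, chr7:19404776-19422841, so its window falls within that span.

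Of the 6 members tested, *Ckmt2* was higher and *Gamt* lower in KO with both sexes averaged (limma, Benjamini-Hochberg adjusted p under 0.05 over all 14675 genes), while *Ckb*, *Gatm*, *Slc6a8* and *Alpl* did not pass. Among all genes tested, 1.43% were called higher and 2.17% lower, 3.6% in either direction. At an unadjusted p under 0.05 limma had 3 of the 6 members, the same 2 and *Ckb*, and 20.2% of all genes. Within females and within males none of the 6 was called, and 0.0204% and 0.0136% of all genes were. In 1 of the 6 every KO library lay above every WT library (3.03% of all genes) and in none did every KO library lie below (6.04%; 9.07% for either). The median log2 difference of the 6 members was 0.04, beside -0.07 over all genes. In WT the order of the mean levels was *Ckb* (55.6 FPKM), *Ckmt2* (11.8), *Slc6a8* (8.99), *Gamt* (6.49), *Alpl* (6.46), *Gatm* (1.97) and *Ckmt1* (0.119). In KO *Ckb* (76.8) and *Ckmt2* (63.3) came close together at the top, followed by *Slc6a8* (8.43), *Alpl* (6.94), *Gamt* (3.37), *Gatm* (2.09) and *Ckmt1* (0.125). The ranges of neighbours in these orders overlapped for *Ckmt2*, *Slc6a8*, *Gamt* and *Alpl* in WT, for *Slc6a8* and *Alpl* in KO, for *Ckb* and *Ckmt2* in KO, and for *Gamt* and *Gatm* in KO.

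**Figure D1:**
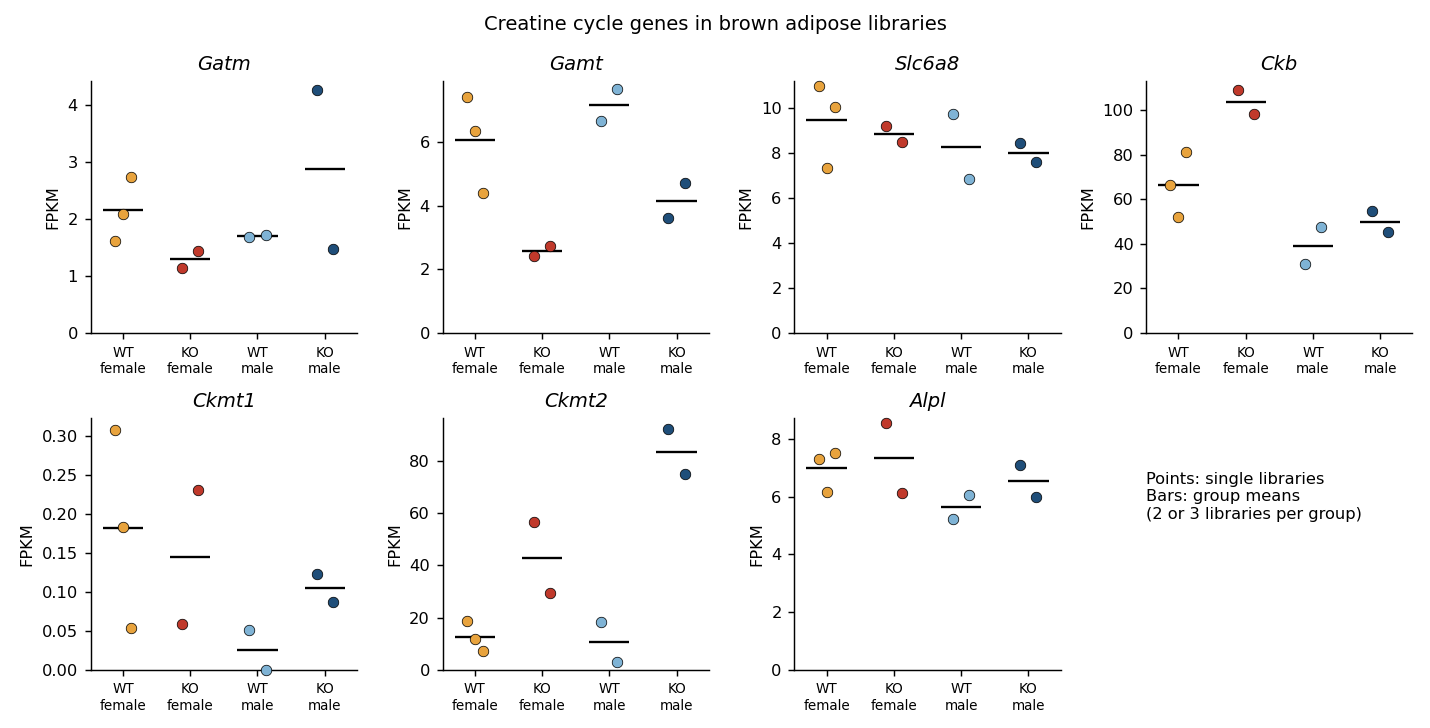
FPKM of the 7 creatine cycle genes, 1 panel a gene, with 1 point per library in the groups KO female, KO male, WT female and WT male and a line at each group's mean. The points of Ckmt2 lie between 29.3 and 92.2 FPKM in KO and between 2.94 and 18.8 in WT, Gamt lies mostly lower in KO, and Ckb is highest in the KO females.

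The enzymes of synthesis differed from each other. *Gamt* (chr10:80258151-80261012, minus strand) was at 2.43 and 2.74 FPKM in the KO females and 3.61 and 4.70 in the KO males. In WT it was at 7.41, 6.35 and 4.40 in the females and 6.65 and 7.65 in the males. The groups overlapped by 1 pair, KO male 2 lying above WT female 3. The mean was 3.37 ± 1.02 (SD, n = 4) in KO and 6.49 ± 1.28 (n = 5) in WT, and the fitted log2 difference was -0.99 (SE 0.17, 95% interval -1.40 to -0.59, limma adjusted p = 0.0352), a level 0.502 times that of WT. The exact two-sided permutation test of KO against WT gave p = 0.0238 for *Gamt*. Among females alone the difference was -1.20 (limma adjusted p = 0.134) and among males -0.79 (0.176), and the interaction of genotype and sex, 0.40, was not called (limma adjusted p = 0.779). Without KO male 1 the difference was -0.90 (limma adjusted p = 0.0519), and the direction held in 18 of 18 alternative settings while the call held in 7. In bulk tissue, fewer cells of a type and less RNA per cell cannot be told apart.

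*Gatm* (chr2:122594467-122611303, minus strand) was at 1.15 and 1.45 FPKM in the KO females, 4.27 in KO male 1 and 1.48 in KO male 2. The WT females were at 1.62, 2.09 and 2.75 and the WT males at 1.68 and 1.71. Of the 4 KO libraries, 3 thus lay below every WT library and the other lay above every one of them. The fitted log2 difference was -0.07 (SE 0.32, 95% interval -0.81 to 0.67, limma adjusted p = 0.944). Without KO male 1, the library with the high value, it was -0.45 (limma adjusted p = 0.212). *Gatm* lies on the chromosome of *Ghrh*, 34.7 Mb away, and *Ckmt1* 36.0 Mb away on the same side. The ratio of *Gatm* to *Gamt* FPKM ran from 0.315 to 1.18 in KO and from 0.219 to 0.624 in WT, and the exact two-sided permutation test of its log2 value gave p = 0.111.

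The genes that supply the 2 enzymes were described through 12 genes of arginine and methyl donor metabolism, of which 9 were tested. Of these, 1 was called higher and 1 lower, beside 1.43% and 2.17% of all genes. *Ahcyl2*, a relative of the enzyme that removes the S-adenosylhomocysteine left by methylation, was at 8.87, 11.7, 9.42 and 9.88 FPKM in the KO libraries (females, then males). In WT *Ahcyl2* was at 23.4, 24.6 and 20.9 in the females and 17.1 and 23.1 in the males. Every KO library lay below every WT library, as for 6.04% of all genes. *Ahcyl2* fell by 1.11 on the log2 scale (SE 0.12, limma adjusted p = 0.0185), and the call held in 13 of 18 alternatives. *Gnmt*, glycine N-methyltransferase, which uses the same methyl donor as *Gamt*, was at 3.30 and 3.70 FPKM in the KO females against 1.01, 1.01 and 1.29 in the WT females. In the males *Gnmt* was at 2.39 and 3.08 in KO and 2.65 and 2.42 in WT. Its log2 difference was 0.89 with sexes averaged (SE 0.14, limma adjusted p = 0.0323), 1.67 in females and 0.10 in males, neither of the last 2 called (limma adjusted p = 0.0551 and 0.866). The interaction for *Gnmt* was -1.57 (limma unadjusted p = 0.000659, adjusted p = 0.614), and the averaged call held in 6 of 18 alternatives. *Mat2a*, which makes S-adenosylmethionine in tissues other than liver, was at 27.7 to 42.0 FPKM in KO and 36.2 to 50.4 in WT (log2 difference -0.37, limma adjusted p = 0.108). *Oat*, ornithine aminotransferase, was at 26.4 to 33.96 FPKM in KO and 29.1 to 36.6 in WT (-0.09, limma adjusted p = 0.706).

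The creatine transporter *Slc6a8* (chrX:73673150-73682502, plus strand) was at 9.18 and 8.50 FPKM in the KO females and 8.43 and 7.60 in the KO males. The WT females were at 10.99, 7.32 and 10.1 and the WT males at 9.73 and 6.83, a range that held all 4 KO libraries. The log2 difference was -0.05 (SE 0.16, limma adjusted p = 0.910), with a 95% interval of -0.41 to 0.31. Its sign turned with median centring (0.0065). Of 4 related carriers, 4 were tested and none was called. The 1 of them with a mean of at least 1 FPKM, the taurine transporter *Slc6a6*, was at 17.9 to 23.6 FPKM in KO and 16.5 to 28.6 in WT (log2 difference -0.11, limma adjusted p = 0.747).

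*Ckb* (chr12:111669361-111672338, minus strand), the kinase at the head of the list in WT, was at 109 and 98.2 FPKM in the KO females and 54.6 and 45.4 in the KO males. In WT it was at 66.6, 52.0 and 81.2 in the females and 30.8 and 47.4 in the males. Within each sex the KO mean was the higher, 103.7 against 66.6 FPKM in females and 50.0 against 39.1 in males, but in males KO male 2 lay below WT male 2. The log2 difference between KO and WT with sexes averaged was 0.52 (SE 0.17, 95% interval 0.12 to 0.92), which did not pass (limma unadjusted p = 0.0167, adjusted p = 0.139). It was 0.66 in the females (limma adjusted p = 0.305) and 0.38 in the males (0.523), and the exact two-sided permutation test, which takes no account of sex, gave p = 0.286. Of the 3125 stretches of 50 bases in the *Ckb* transcripts, 9.98% also occurred in other genes, among them *Ckb-ps1* and *Ckb-ps2*, so some fragments could have been counted for either.

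Among the 6 members tested, *Ckb* also had the largest log2 difference between the sexes. The 5 female libraries had a mean of 81.4 ± 23.1 FPKM (SD) and the 4 male libraries 44.5 ± 9.99, with KO male 1 above WT female 2 as the only overlap. The log2 difference, male minus female with genotypes averaged, was -0.92 (SE 0.17, 95% interval -1.32 to -0.52, limma unadjusted p = 0.000784), which did not pass over all genes (adjusted p = 0.183). Only 2 genes (0.0136%) were called between the sexes. None of the other members was called (limma adjusted p from 0.418 to 0.923), and the largest difference among them was that of *Gamt*, 0.47. At an unadjusted p under 0.05 the sexes differed in 2 of the 6 members, *Ckb* and *Gamt*, beside 10.4% of all genes. The interaction of genotype and sex was not called for any of the 6, nor for any other gene (limma), with 0 of the 6 members and 1028 of all genes (7.01%) at an unadjusted p under 0.05.

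*Ucp1*, the marker of the parallel route of heat production, was at 2992 and 2460 FPKM in the KO females, 2164 and 2399 in the KO males, 1650, 2086 and 2325 in the WT females and 1357 and 1681 in the WT males. Its log2 difference, KO minus WT, was 0.52 (SE 0.13, limma adjusted p = 0.0739), and the exact two-sided permutation test gave p = 0.0397. *Ucp1* was thus close in size of difference to *Ckb*, and neither passed the limma test. The 3 genes whose levels over the 9 libraries were most like those of *Ckb*, by the mean absolute difference of centred log2 FPKM, were *Acrbp* (0.13), *Rsrp1* (0.22) and *Rxrg* (0.22).

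**Figure D2:**
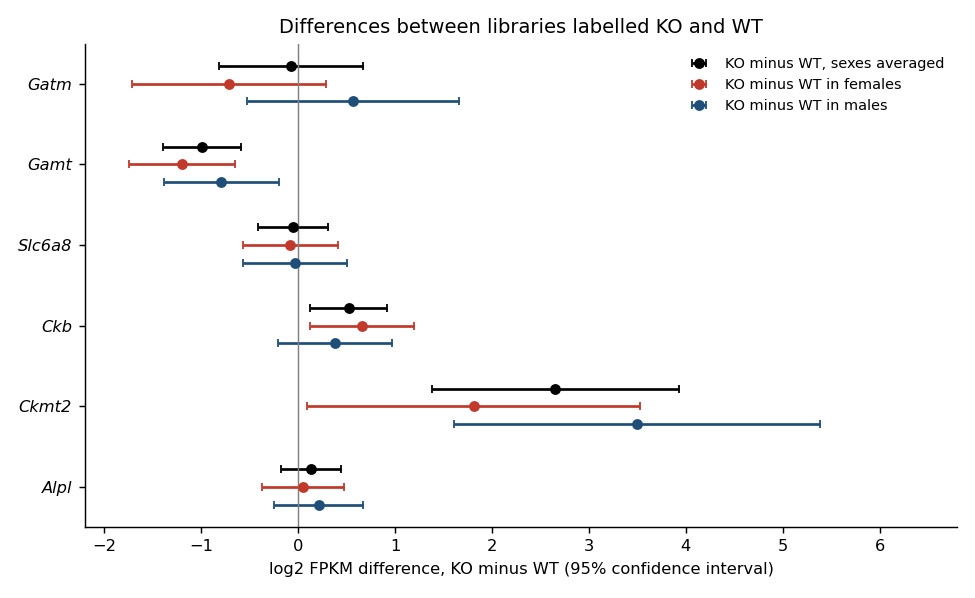
Fitted log2 FPKM difference, KO minus WT (x axis), of the 6 members that could be tested. Points are limma estimates with 95% confidence intervals in females, in males and with sexes averaged. With sexes averaged the intervals of Ckmt2 (1.38 to 3.93), Gamt (-1.40 to -0.59) and Ckb (0.12 to 0.92) lie away from 0. Ckb was not called after adjustment. The intervals of Gatm, Slc6a8 and Alpl span 0, and that of Ckmt2 is the widest.

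*Ckmt1* (chr2:121357714-121363737, plus strand), the mitochondrial kinase of non-muscle tissues, was near the limit of what these libraries could show. It was at 0.0589 and 0.231 FPKM in the KO females, 0.124 and 0.0865 in the KO males, 0.308, 0.184 and 0.0540 in the WT females and 0.0504 in WT male 1, and it was listed at 0 in WT male 2. The KO and WT ranges overlapped (exact two-sided permutation test on log2(FPKM + 0.1), p = 0.698). It made up at most 0.120% of the summed FPKM of the 4 creatine kinases in any library. Its gene overlaps *Strc* on the other strand, and whether strand was used in counting is not given in the sources used here.

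*Ckmt2* (chr13:91853387-91876885, minus strand) showed the largest difference of the 7 genes. It was at 56.7 and 29.3 FPKM in the KO females and 92.2 and 75.2 in the KO males. In WT it was at 18.8, 11.6 and 7.16 in the females and 18.4 and 2.94 in the males. Every KO library lay above every WT library. The mean was 63.3 ± 26.9 FPKM (SD, n = 4) in KO and 11.8 ± 6.95 (n = 5) in WT. The log2 difference was 2.65 (SE 0.55, limma adjusted p = 0.0456), 6.29-fold, with a 95% interval of 2.60-fold to 15.2-fold. The exact two-sided permutation test gave p = 0.00794, the smallest this test can give with 4 against 5 libraries. The difference was 1.81 in the females (limma adjusted p = 0.373) and 3.50 in the males (0.0998), and the interaction, 1.69, was not called (limma adjusted p = 0.732).

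The direction for *Ckmt2* held in 18 of 18 alternatives, and the call in 5 of them (limma adjusted p from 0.00876 to 0.173). The size rested most on the WT males: without WT male 1 the log2 difference was 3.32 (limma adjusted p = 0.00876) and without WT male 2 it was 1.99 (0.0760). Without KO male 1 it was 2.58 (0.0680). A noncoding gene on the other strand, *1700119I11Rik*, overlaps *Ckmt2*, and 2.51% of the stretches of 50 bases in the *Ckmt2* transcripts also occurred in it.

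Skeletal muscle transcripts moved with *Ckmt2*. All 20 muscle markers tested had a positive log2 difference, from 1.75 to 3.14 with a median of 2.28, beside 5502 of all 14675 genes. Of the markers 4, *Acta1*, *Actn2*, *Myh1* and *Mylpf*, were called higher, beside 1.43% of all genes. These calls held in 6, 5, 5 and 4 of 18 alternatives. In 12 of the 20 every KO library was above every WT library (3.03% of all genes), and none was at 0 in all libraries. Their summed FPKM was 6967 and 3294 in the KO females, 13197 and 7035 in the KO males, 2619, 1749 and 1345 in the WT females and 2448 and 515 in the WT males. The KO sums were all above the WT sums (log2 difference of the means 2.17, exact two-sided permutation test p = 0.00794). Ordering the 9 libraries by *Ckmt2* and by the muscle sum gave the same place to 9 of 9. Ordering them by *Ckmt2* and by *Ckm* gave it to 7 of 9. Within WT alone, *Ckmt2* varied 6.39-fold from the lowest to the highest library and the muscle sum 5.08-fold. Only 1 of the 20 markers, the slow-fibre troponin *Tnni1*, had a larger log2 difference than *Ckmt2*, and the difference of *Tnni1* was not called (limma adjusted p = 0.303).

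The muscle transcripts were not of 1 make-up in all libraries. Skeletal alpha-actin, *Acta1*, the highest of the markers, was at 2693 FPKM in KO male 1 and at 784 to 1614 in the other 3 KO libraries, against 96.3 to 618 in WT. The slow-fibre myosin *Myh7*, in contrast, was at 0.394 FPKM in KO male 1 and at 10.9 to 35.5 in the other KO libraries, with 0.0778 to 7.83 in WT. *Tnni1* and *Myh7* were named after their values were seen.

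*Ckm* (chr7:19404776-19422841, plus strand), the cytosolic kinase of muscle, was at 475 and 192 FPKM in the KO females and 1098 and 465 in the KO males. In WT it was at 172, 116 and 87.4 in the females and 159 and 31.3 in the males. Every KO library was above every WT library here too, and the log2 difference was 2.33 (SE 0.54, limma adjusted p = 0.0600, exact two-sided permutation test p = 0.00794). Per 100 FPKM of *Ckm*, *Ckmt2* was at 11.9, 15.2, 8.39 and 16.2 FPKM in the KO libraries (females, then males) and at 10.96, 9.99, 8.19, 11.6 and 9.39 in the WT libraries. These ratios overlapped (log2 difference 0.33, exact two-sided permutation test p = 0.159). Per 100 FPKM of the muscle marker sum, *Ckmt2* was at 0.699 to 1.07 in KO and 0.532 to 0.754 in WT (log2 difference 0.42, exact two-sided permutation test p = 0.0397). Each ratio's difference equals that of *Ckmt2* in mean log2 FPKM (2.59) less that of its divisor (2.26 for *Ckm*, 2.17 for the muscle sum). Both divisors were higher in KO, so both differences had to be smaller than 2.59. What part muscle RNA in the dissected tissue had in the difference of *Ckmt2* was not tested. A gene on the other strand, *A930016O22Rik*, overlaps *Ckm*, and 10.8% of the stretches of 50 bases in the *Ckm* transcripts also occurred in it.

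**Figure D3:**
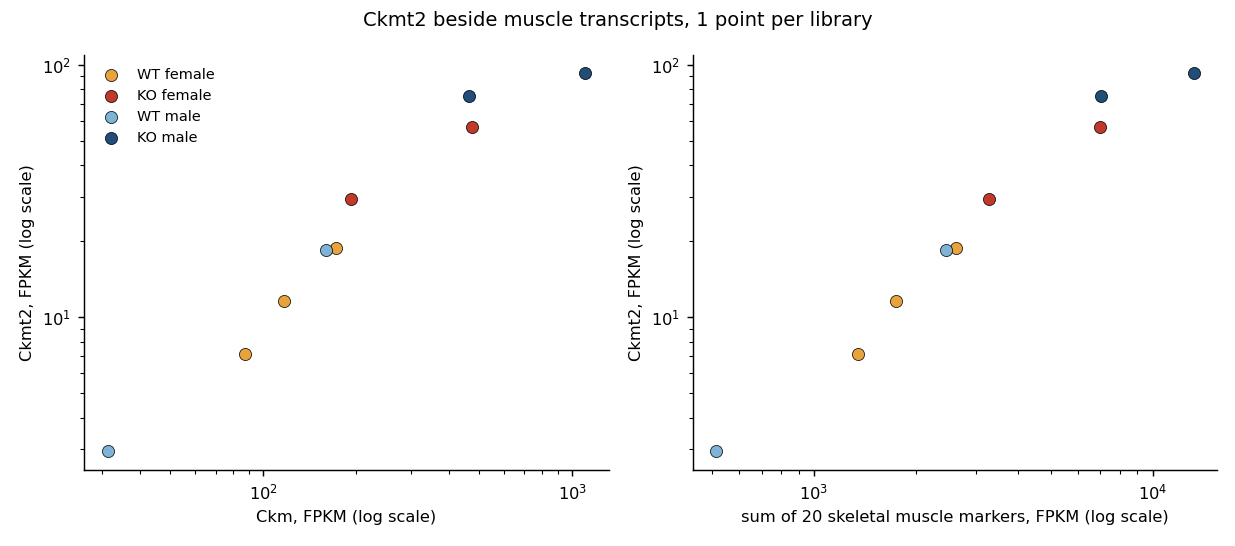
Ckmt2 FPKM (y axis) against Ckm FPKM (left) and against the summed FPKM of 20 skeletal muscle markers (right). Both axes are on log scales, with 1 point per library and a colour for each group of genotype and sex. The 9 libraries run from WT male 2 at the lower left to KO male 1 at the upper right, with the 4 KO libraries above and to the right of the 5 WT libraries.

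The 3 genes whose levels were most like those of *Ckmt2* over the 9 libraries were muscle genes. They were *Murc* (0.13), which encodes a caveola protein of muscle, *Mypn* (0.14), which encodes the sarcomere protein myopalladin, and *Trdn* (0.16), which encodes triadin of the sarcoplasmic reticulum, each value being the mean absolute difference of centred log2 FPKM. The levels of *Ckmt2* spanned 4.97 on the log2 scale. For *Gamt*, which spanned 1.65, the most alike were *Dram1* (0.15), *Oscp1* (0.16) and *Matn2* (0.18). For *Gatm*, which spanned 1.90, they were *Cldn1* (0.18), *Ehd3* (0.18) and the myelin gene *Mbp* (0.18). *Slc6a8* and *Alpl* spanned under 1.5 and were not compared.

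The mixture of creatine kinase transcripts differed widely between libraries. The summed FPKM of *Ckb*, *Ckm*, *Ckmt1* and *Ckmt2* was 320 to 1245 in KO and 81.6 to 257 in WT. *Ckb* made up 17.0% and 30.7% of it in the KO females and 4.38% and 7.76% in the KO males, against 25.9%, 28.8% and 46.2% in the WT females and 14.8% and 58.0% in the WT males. *Ckm* made up 60.1% to 88.2% in KO and 38.4% to 76.4% in WT. *Ckmt2* made up 7.40% to 12.8% in KO and 3.61% to 8.85% in WT. *Ckm* exceeded *Ckb* 1.96-fold to 20.1-fold in KO and 0.662-fold to 5.18-fold in WT (exact two-sided permutation test on the log2 ratio, p = 0.0873). WT male 2, with the lowest muscle marker sum, was the only library in which *Ckb* exceeded *Ckm*.

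**Figure D4:**
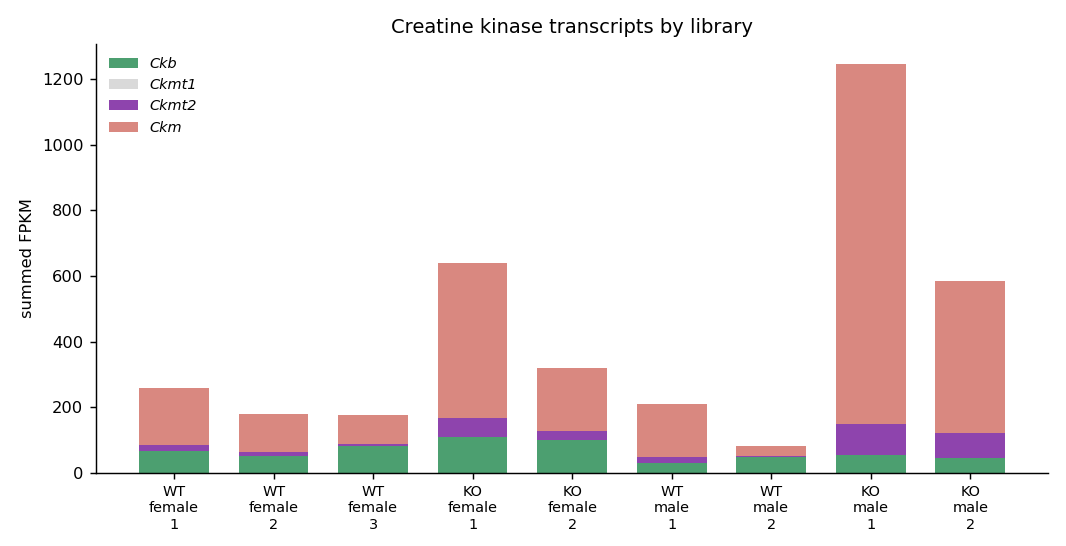
Stacked bars of the FPKM of the 4 creatine kinase genes in each of the 9 libraries (y axis, summed FPKM from 0). Ckm takes the largest part in all libraries but WT male 2, the totals of the 4 KO libraries (320 to 1245 FPKM) lie above those of the 5 WT libraries (81.6 to 257), and Ckmt1 is too low to be seen.

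The phosphatase *Alpl* (chr4:137741733-137796384, minus strand), tissue-nonspecific alkaline phosphatase, was at 8.57 and 6.12 FPKM in the KO females and 7.11 and 5.98 in the KO males. In WT it was at 7.33, 6.16 and 7.52 in the females and 5.22 and 6.05 in the males. The groups overlapped almost wholly, with means of 6.94 ± 1.20 (SD, n = 4) and 6.46 ± 0.956 (n = 5). The log2 difference was 0.13 (SE 0.13, 95% interval -0.18 to 0.45, limma adjusted p = 0.665). Of 10 other genes of phosphatases and of phosphate or pyrophosphate handling, 7 were tested and none was called. The phosphate importer *Slc20a2* was at 8.24 to 9.86 FPKM in KO and 5.56 to 9.74 in WT (log2 difference 0.28, limma adjusted p = 0.288), and the phosphocholine phosphatase *Phospho1* at 10.3 to 14.7 and 9.55 to 13.5 (0.21, limma adjusted p = 0.440). The intestinal-type relatives *Alpi* and *Alppl2* were listed at 0 in all 9 libraries.

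Mitochondrial creatine kinase receives ATP from the adenine nucleotide translocases and passes phosphocreatine on through the voltage-dependent anion channels. Of the 7 genes of this export route tested, none was called, and 5 had an unadjusted p under 0.05, as 20.2% of all genes did. *Slc25a4*, the translocase of heart, muscle and brown fat, was at 433 to 633 FPKM in KO and 285 to 391 in WT (log2 difference 0.54, limma adjusted p = 0.0600). The phosphate carrier *Slc25a3* was at 147 to 170 and 120 to 143 (0.30, limma adjusted p = 0.0574). The more widely used translocase *Slc25a5*, named after its values were seen, was at 280 to 331 and 330 to 366 (-0.21, limma adjusted p = 0.101). The translocases thus lay on opposite sides of 0.

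Of 9 other phosphotransfer genes, 9 were tested and 2 were called, both higher (1.43% of all genes). *Ak1*, the cytosolic adenylate kinase, which is abundant in muscle, was at 78.2 and 60.3 FPKM in the KO females and 115 and 74.9 in the KO males, against 59.7, 51.0, 46.3, 42.9 and 28.2 in the WT libraries (females, then males). The log2 difference of *Ak1* was 0.91 (SE 0.18, limma adjusted p = 0.0437). *Ak4*, a mitochondrial member of the family, was at 0.818 to 1.16 FPKM in KO and 0.324 to 0.492 in WT (log2 difference 1.22, SE 0.21, limma adjusted p = 0.0351). The call held in 7 of 18 alternatives for *Ak1* and 6 of 17 for *Ak4*. Over the 36 genes tested around the cycle, 3 were called higher and 1 lower, 11.1% against 3.6% of all genes, and the median log2 difference was 0.00. *Ak1* and *Slc25a4* were highest in KO male 1 and lowest in WT male 2, as was the muscle marker sum, and the part of muscle RNA in their values was not tested.

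**Figure D5:**
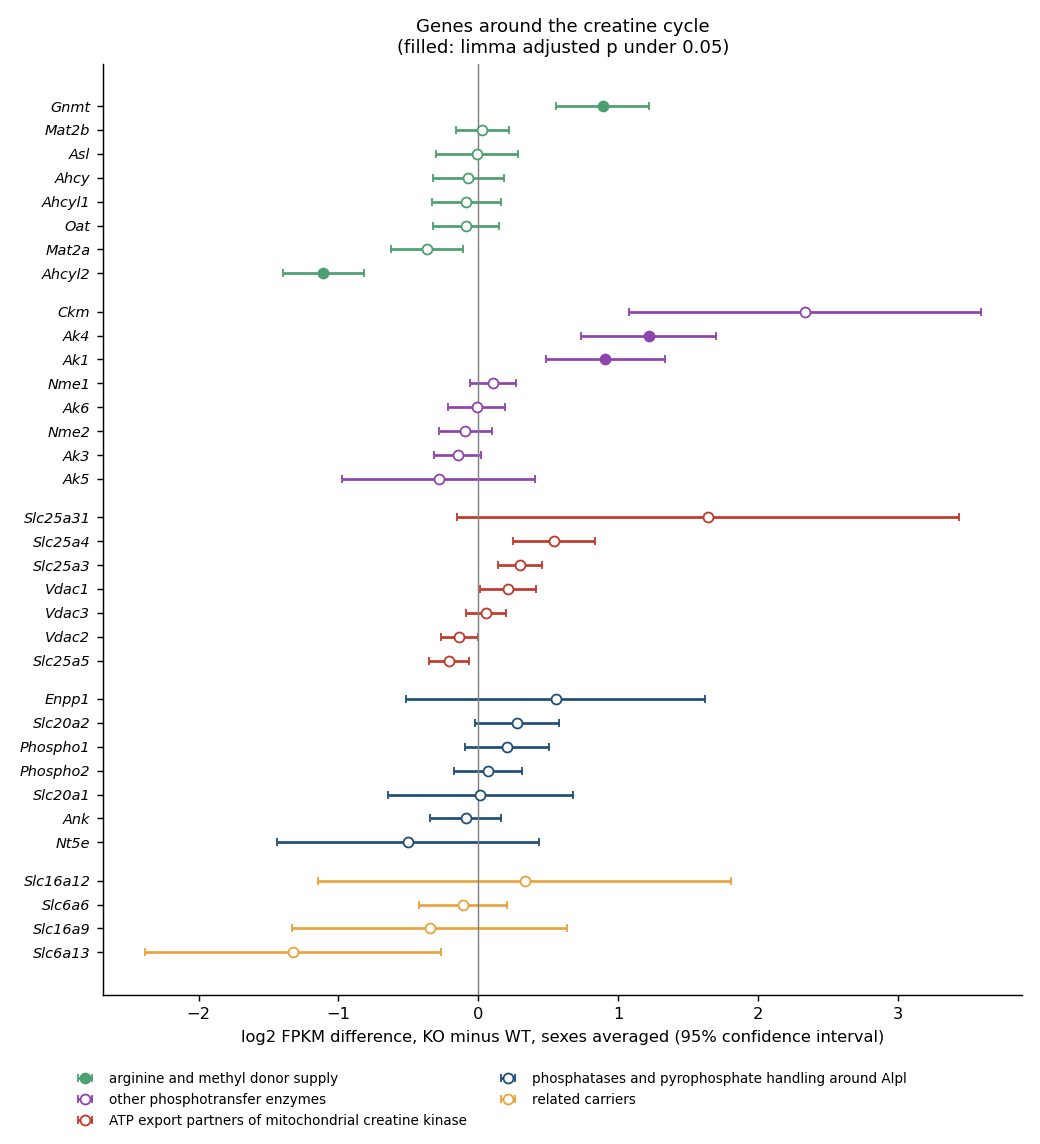
Limma log2 FPKM difference, KO minus WT with sexes averaged (x axis), with 95% confidence intervals for genes tested around the creatine cycle, coloured by list, filled points being those called. Ahcyl2 lies to the left of 0, and Gnmt, Ak4 and Ak1 to the right. Ass1, close to 0 FPKM in 8 of the 9 libraries, is not drawn.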

How the data were processed

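The FPKM of each library were deposited by the authors as 1 table per mouse, with gene symbols. Per the labels and the methods, polyadenylated RNA was sequenced in pairs of reads on Illumina instruments, and the submitters' processing notes name bcl2fastq 1.8.4, TopHat2 2.0.11, Bowtie and mm10. The methods name Bowtie for transcript assembly and abundance, and whether strand was used is not given in the sources used here. Log2 FPKM were taken without a pseudocount, for genes above 0 in all 9 libraries. limma 3.58.1 (R 4.3.3) was fitted with 1 mean per group of genotype and sex, a mean-variance trend and Benjamini-Hochberg adjustment at 0.05 over all tested genes, after it had been tested on simulated data. Single values were compared by 14 exact two-sided permutation tests (numpy 2.4.6), not adjusted for their number. Depth is unknown, so no counting error is given. The limma p-values rest on the spread between mice within groups, shared over genes through the mean-variance trend. The permutation tests split all 9 libraries without regard to sex.

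The members and lists were chosen with earlier results of these data known. Named were the members, *Ckm*, *Ucp1*, *Ghrh*, the called genes of each pathway list with the 2 largest other differences at a mean of at least 1 FPKM (1 of these is not reported here), the 2 highest markers of a list, and the 3 genes most alike to a member that spanned 1.5 or more on the log2 scale. Positions are from GENCODE M21 (GRCm38, 1-based). RefSeq promoter windows were found for 6 of the 7 members, all but *Slc6a8*, with 2 each for *Ckmt1* and *Alpl*. Alternatives were other pseudocounts, filters, scalings and models, and leaving out each library.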

Additional observations from a re-analysis of the deposited data

Results flagged for a closer look

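*Gatm* in KO male 1, at 4.27 FPKM, stood far from the other libraries of its group by Dixon's criterion, both among the 4 labelled KO (the other 3 at 1.15 to 1.48 FPKM) and among the 4 male libraries (the other 3 at 1.48 to 1.71 FPKM). The same library supplied both, so they are 1 observation. Of 36 groups examined, 2 were beyond the limit, and chance alone puts about 5% of groups there. KO male 1 also had the highest sums of the muscle (13197 FPKM), lymphocyte (178.8 FPKM), macrophage (48.9 FPKM) and nerve (97.6 FPKM) markers, and their part in the value of *Gatm* was not tested.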

How the results depend on the processing

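No paired analysis was possible because the replicate numbers only follow the order of deposition. For KO minus WT with sexes averaged, the log2 difference of *Ckmt2* lost its call with a pseudocount of 0.1 (2.64, adjusted p = 0.0504), with no filter on low values (2.64, 0.0735), with median centring (2.71, 0.0546), with no mean-variance trend (2.65, 0.0825), in an ordinary linear model (2.65, 0.137) and with sex as an additive term (2.58, 0.0563). That of *Gamt* lost its call with no filter (-0.97, 0.0535), with median centring (-0.94, 0.0648), with quantile normalization (-0.96, 0.0547), with no trend (-0.99, 0.0692) and in an ordinary linear model (-0.99, 0.102). So 1 member was called with the pseudocount of 0.1, with quantile normalization or with the additive term, and 0 with no filter, median centring, no trend or the ordinary model. At an unadjusted p under 0.05, limma had 3 of the 6 members. Over all genes, 529 were called, but 170 with no filter, 222 with median centring, 34 with no trend and 19 in the ordinary model. The calls were 210 higher and 319 lower, 130 and 92 with median centring, and 228 and 216 with quantile normalization. Signs turned for *Gatm* with quantile normalization (0.016), and for *Slc6a8* with median centring (averaged 0.0065, females 0.032, interaction -0.050) and quantile normalization (males 0.0087), all from values near 0. The cause was not tested.

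Leaving out each library gave averaged differences of 1.99 to 3.32 for *Ckmt2* (called without KO male 2 and without WT male 1), -1.10 to -0.90 for *Gamt* (called without KO male 2, WT female 3 or WT male 1), -0.45 to 0.31 for *Gatm*, -0.18 to 0.076 for *Slc6a8*, 0.37 to 0.68 for *Ckb* and 0.01 to 0.26 for *Alpl*. Members called ran from 0 to 2 and genes called from 8 (without KO female 1) to 1105 (without KO male 2). Leaving out any library but a WT female left 1 group with a single library, assumed to vary like the rest. In females the range was -0.25 to 0.042 for *Slc6a8* and -0.19 to 0.30 for *Alpl*. In males it was -0.20 to 1.33 for *Gatm*, -0.28 to 0.23 for *Slc6a8* and 2.17 to 4.82 for *Ckmt2* (4.82 without WT male 1). For the interaction it was 0.51 to 2.04 for *Gatm* (2.04 without KO male 2, with only KO male 1 in its group). The interaction ranged from -0.20 to 0.31 for *Slc6a8*, -0.59 to 0.034 for *Ckb* and -0.084 to 0.40 for *Alpl*. For male minus female it was -0.054 to 0.71 for *Gatm* and -0.47 to 0.85 for *Ckmt2*. Values near 0 FPKM, as for *Ckmt1*, limit what depth can show.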
